A study of Homo sapiens with 4 samples.

Results

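This account covers 7 genes of the endoderm transcription factor network: the forkhead factors FOXA1, FOXA2 and FOXA3, the nuclear receptors HNF4A and HNF4G, the leucine zipper factor CEBPA, and LINC00261, a long noncoding RNA transcribed next to FOXA2. They were found by gene symbol in the platform annotation, counting only probe sets annotated to 1 gene. Of the 7, 6 had such probe sets (10 in all, among 41091 single-gene probe sets for 19775 genes). HNF4A had none in the annotation used and was not analysed here. The set was selected on earlier results of these same arrays, which held CHST11 ratios and line differences of some of its genes, so all values of its genes are a description. No p-value is given for them, and nothing is read from the counts of members past a threshold.

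FOXA proteins are pioneer factors: their forkhead domain binds DNA in closed chromatin and lets other regulators in. In the embryo they specify the gut tube endoderm, and in the lung FOXA1 and FOXA2 act with NKX2-1 in branching, airway and alveolar differentiation. HNF4 receptors, CEBPA and FOXA factors together drive liver-type and gut-type gene programmes, and CEBPA also takes part in maturation of alveolar cells. LINC00261 is known for its co-expression with FOXA2.

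RNA was measured on 4 Affymetrix arrays with 54675 probe sets each, 1 array per group. The groups were A549 with empty vector, A549 with the CHST11 vector, NCI-H358 with empty vector and NCI-H358 with the CHST11 vector. Both are established human lung cancer lines, A549 from an adenocarcinoma and NCI-H358 from a bronchioloalveolar carcinoma. All cells were stably transduced and antibiotic-selected, controls included, and CHST11 encodes a Golgi enzyme that sulfates chondroitin. The labels name neither the promoter of the vectors nor whether a culture was 1 clone or a pool. With 1 array per group, the CHST11 comparison within a line has no replicate check, and the number of arrays limits the precision. Where the lines are compared over 2 arrays each, nothing says that the arrays stand for separate cultures of a line beyond their vector, so p-values measure only the spread between these arrays.

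The values are MAS5 signals on a linear scale, comparable between arrays for 1 probe set but not between probe sets. A gene is called measured in a line when its signal was at least 27 on at least 1 of the 2 arrays of that line (the filter, at the 60th percentile of all values). Signals under 16.14, the 50th percentile, were set to that floor before log2 was taken. Scatter was gauged by how far the probe sets of a gene differed in log2 ratio. The pooled SD of the CHST11 ratio was 0.16 over 5117 genes in A549, and 0.17 over 5150 genes in NCI-H358. For the line difference it was 0.50 over 5577 genes, so that difference varied more with the probe set. All 5 epithelial markers were measured in both lines, and the 4 hepatocyte markers (ALB, APOA1, APOB, SERPINA1) were under the filter on all 4 arrays. Of 4 lung lineage markers, the factor NKX2-1 had signals of 5.62 and 6.38 in A549, under the floor, and of 247 and 264 in NCI-H358. SFTPB (27.3 to 30.5) and SFTPC (45.9 to 51.15) were above the filter on all 4 arrays, with log2 line differences of 0.06 and 0.01. NAPSA was under the filter on all 4. Of 4 leukocyte markers, PTPRC and LYZ were under the floor on all 4 arrays. CD3E had 27.1 and 25.96 in A549, a CHST11 ratio of log2 -0.06. CD14 had 24.2 and 38.4 in A549, higher on the CHST11 array as FOXA3 and LINC00261 were. The part of CD14 in their values was not tested. The fibroblast marker COL1A1 (152.5 to 170) and the endothelial marker PECAM1 (34.6 to 39.96) were above the filter on all 4 arrays. The other fibroblast and endothelial markers were under it on all 4. In bulk RNA, fewer cells with a transcript and less of it per cell cannot be told apart. Of 3 CHST11 probe sets, the brightest had a log2 ratio of 1.41 in the A549 pair of arrays and of 2.26 in the NCI-H358 pair, higher with the CHST11 vector as its label says, and the other two lay between -0.16 and 0.14.

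The promoter windows of 4 members are shown because these genes had the highest CHST11 ratios (LINC00261, FOXA3) or large line differences measured with the floor (FOXA1 higher and CEBPA lower in NCI-H358). They are RefSeq sequences of GRCh38.p14 that begin 250 bases before the annotated start. The LINC00261 window runs on to 50 bases after it. Capitals mark matches, on either strand, to the forkhead form TGTTTAC or its variants TATTTAC as well as TGTTTGC, to the CEBP form TTGCNNAA, to the HNF4 form CAAAGTCCA or to the TATA box TATAAA.
LINC00261 (GRCh38.p14, chr20:22578593-22578892, minus strand): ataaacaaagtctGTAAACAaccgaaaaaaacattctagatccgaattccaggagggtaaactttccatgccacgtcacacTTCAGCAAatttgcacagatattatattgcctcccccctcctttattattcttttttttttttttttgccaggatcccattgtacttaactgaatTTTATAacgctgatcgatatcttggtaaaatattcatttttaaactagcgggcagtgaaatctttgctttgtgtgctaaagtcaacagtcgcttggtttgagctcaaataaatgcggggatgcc
FOXA3 (GRCh38.p14, chr19:45864076-45864325, plus strand): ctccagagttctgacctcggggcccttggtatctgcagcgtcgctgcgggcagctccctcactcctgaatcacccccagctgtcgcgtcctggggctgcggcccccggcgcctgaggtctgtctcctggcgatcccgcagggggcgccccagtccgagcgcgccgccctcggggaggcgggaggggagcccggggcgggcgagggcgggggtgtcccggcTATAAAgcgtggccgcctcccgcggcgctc
FOXA1 (GRCh38.p14, chr14:37595250-37595499, minus strand): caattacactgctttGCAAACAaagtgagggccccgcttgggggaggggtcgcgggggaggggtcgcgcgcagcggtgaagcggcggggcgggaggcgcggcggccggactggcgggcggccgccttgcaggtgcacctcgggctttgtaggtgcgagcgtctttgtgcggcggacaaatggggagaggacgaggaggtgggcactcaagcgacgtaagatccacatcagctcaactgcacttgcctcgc
CEBPA (GRCh38.p14, chr19:33302535-33302784, minus strand): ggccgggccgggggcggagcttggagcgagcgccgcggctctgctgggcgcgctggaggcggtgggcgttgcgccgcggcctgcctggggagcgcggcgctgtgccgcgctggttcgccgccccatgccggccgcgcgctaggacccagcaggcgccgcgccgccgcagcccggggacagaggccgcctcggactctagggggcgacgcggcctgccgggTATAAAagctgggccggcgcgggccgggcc

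The LINC00261 window was poor in GC beside the others shown. Its GC content over 300 bases was 37%, lower than in all but 6.54% of 35114 RefSeq promoter windows, whose median was 58.7%. FOXA1 had 69.3%, FOXA3 76.3% and CEBPA 80.7%. The LINC00261 window held the forkhead form TGTTTAC (read as GTAAACA, 237 bases before the start), which 3.42% of all windows hold. It also held the CEBP form at 169 bases before the start (10.5% of windows) and TATAAA on the opposite strand. FOXA1 held the forkhead form TGTTTGC 235 bases before its start, which 3.89% of windows hold. FOXA3 and CEBPA held no forkhead form in this window, and each had TATAAA 30 bases before the start (11.5% of windows hold it). No member window shown held CAAAGTCCA, which 0.384% of windows hold. None of the matches overlapped another, and a match describes letters, not binding.

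FOXA1 and FOXA2, the paired lung and endoderm pioneer factors, differed between the lines in opposite directions. FOXA1 had signals of 84.8 and 87.6 in A549 (empty vector, then CHST11) and of 234 and 253 in NCI-H358. Both NCI-H358 arrays were far above both A549 arrays, and the fitted log2 difference between lines was 1.496 (SE 0.09), a 2.82-fold higher signal in NCI-H358. FOXA2 had signals of 203 and 230.5 in A549 and of 92.9 and 93.3 in NCI-H358. Here the A549 arrays were the high ones, with a log2 difference of -1.22 (SE 0.10), 2.33-fold lower in NCI-H358. A second FOXA2 probe set gave 189, 234, 72.0 and 76.5 in the same order, a log2 difference of -1.50, so both probe sets placed FOXA2 higher in A549.

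FOXA3, the family member best known from liver and gut, was measured in A549 alone. Its only probe set had signals of 28.3 and 50.96 in A549 and of 7.14 and 5.51 in NCI-H358. Both NCI-H358 values were under the floor, so the line difference is a bound: with these arrays raised to the filter, FOXA3 was at least 1.41-fold higher in A549. The empty vector value in A549 lay just above the filter, and the CHST11 value clearly above it.

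CEBPA, which drives hepatocyte, adipocyte and myeloid differentiation as well as alveolar maturation, had signals of 75.5 and 63.6 in A549 and of 16.1 and 16.97 in NCI-H358. The NCI-H358 values lay just under and just above the floor, and the signal was at least 2.57-fold higher in A549. LINC00261 had signals of 51.7 and 80.0 in A549 and of 19.6 and 31.6 in NCI-H358. Its groups did not overlap between lines, the fitted log2 difference was -1.37 (SE 0.09), and with 1 array raised to the filter the signal was at least 2.20-fold higher in A549. FOXA2, beside it on the chromosome, was also higher on both A549 arrays (-1.22 against -1.37 on the log2 scale).

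HNF4G, an HNF4 receptor found in gut epithelium, was higher on both NCI-H358 arrays. It had signals of 28.0 and 25.1 in A549 and of 36.9 and 44.4 in NCI-H358. The fitted log2 difference was 0.61 (SE 0.13), close to the SD of 0.50 between probe sets of a gene. A further HNF4G probe set (4.76 to 5.96), a further FOXA1 probe set (3.57 to 6.48) and the last FOXA2 probe set (10.6 to 14.3) lay under the floor on all 4 arrays.

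**Figure D1:**
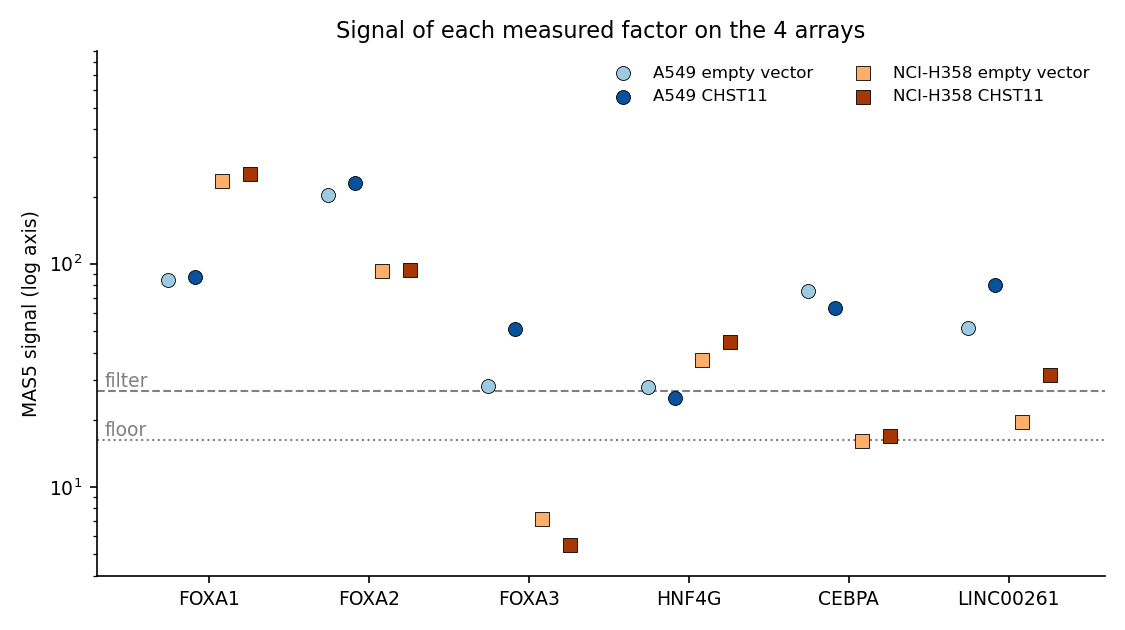
Signal (log axis) of the probe set representing each of the 6 measured genes on each of the 4 arrays, with A549 as circles and NCI-H358 as squares, the empty vector in light and CHST11 in dark colours; dashed and dotted lines mark the filter (27) and the floor (16.14). FOXA1 and HNF4G are higher on both NCI-H358 arrays, and FOXA2, FOXA3, CEBPA and LINC00261 on both A549 arrays.

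In the limma fit over 12271 genes, 64.5% of all genes were called between the lines at a Benjamini-Hochberg adjusted p of 0.05 (33.9% higher and 30.6% lower in NCI-H358). All 6 measured members lay past that threshold, 2 higher and 4 lower, which the choice of the set on these arrays can fix. FOXA3 and CEBPA had also passed the filter only through A549, where they were high. Over all genes the line difference had a median of 0.03 and an SD of 1.18, and FOXA1 ranked 793rd from the highest. The order of FOXA3 and CEBPA at the low end depended on the floor: FOXA3 had -1.23 with it and -2.60 without, and CEBPA stayed between -2.23 and -1.91. The count of members past the threshold was 2 of 6 (FOXA1 and LINC00261) when the 19775 genes were fitted with no filter, where 9.63% of all genes were called.

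The comparison of vectors asked what CHST11 expression went with inside each line. LINC00261 had the largest ratio of the 4 members measured in both. Its signal was 51.7 with the empty vector and 80.0 with CHST11 in A549, 1.55-fold higher (log2 0.63), and 19.6 and 31.6 in NCI-H358, 1.61-fold higher (log2 0.69). The ratios were 4.0 and 3.99 times the probe set SD of their lines. That SD is pooled over bright and dim genes alike and holds no spread between cultures. The NCI-H358 empty vector signal lay under the filter. LINC00261 ranked 39th from the highest of 11448 genes in A549 and 62nd of 11395 in NCI-H358. The fitted shared log2 difference was 0.66 (SE 0.09). These ratios helped to choose the set, and LINC00261 rests on a single probe set and 1 array per group.

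The neighbouring FOXA2 gene differed less between vectors than LINC00261. In A549 its probe sets had log2 ratios of 0.18 and 0.31, both higher with CHST11 and above the probe set SD of 0.16. In NCI-H358 they had 0.01 and 0.09, inside the probe set SD. In each line the LINC00261 ratio exceeded both FOXA2 ratios. FOXA1 had 0.05 in A549 and 0.12 in NCI-H358, both inside the probe set SD.

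FOXA3 had the largest ratio of the set in A549, 1.80-fold higher with CHST11 (log2 0.85, 28.3 and 50.96), and ranked 11th from the highest of 11448 genes. In NCI-H358 it was under the floor with both vectors, so no ratio could be given there. CEBPA was lower with CHST11 in A549, with a log2 ratio of -0.25 (75.5 and 63.6), and was not measured in NCI-H358. HNF4G had -0.16 in A549, at the probe set SD, and 0.27 in NCI-H358, 1.54 times it.

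By size, 2 of 6 members in A549 (FOXA3 and LINC00261) and 1 of 4 in NCI-H358 (LINC00261) passed 1.5-fold upward with CHST11, and 0 passed it downward in either line. The background over all measured genes was 0.489% upward, 0.716% downward and 1.21% in either direction for A549, and 0.895%, 0.272% and 1.17% for NCI-H358. For genes of like signal, the share was also taken among genes within 2-fold of the mean signal of the member: it was 1.41% near FOXA3 and 0.591% near LINC00261 in A549, and 2.55% near LINC00261 in NCI-H358. At 2-fold, 0.0349% of genes in A549 and 0.0527% in NCI-H358 were higher and 0.0786% and 0.0% lower, with no member among them. The median log2 ratio of the measured members was 0.11 over 6 genes in A549 and 0.19 over 4 in NCI-H358. Over all genes it was 0.01 and 0.00. Earlier results of these arrays helped to choose the set, so the member medians are a description. Higher in both lines at 1.5-fold were 3 genes of 10572 measured in both (0.0284%): LINC00261, CHST11 and ZNF835 (log2 0.59 and 0.62), the last named after its values were seen. HNF4G had opposite signs in the lines, as did 52.3% of these genes. A limma fit of the vector difference over both lines, with Benjamini-Hochberg adjustment, made 0 calls among the 12271 genes. Without adjustment 374 had a p under 0.05, and a variance trend gave 0 calls and 330.

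**Figure D2:**
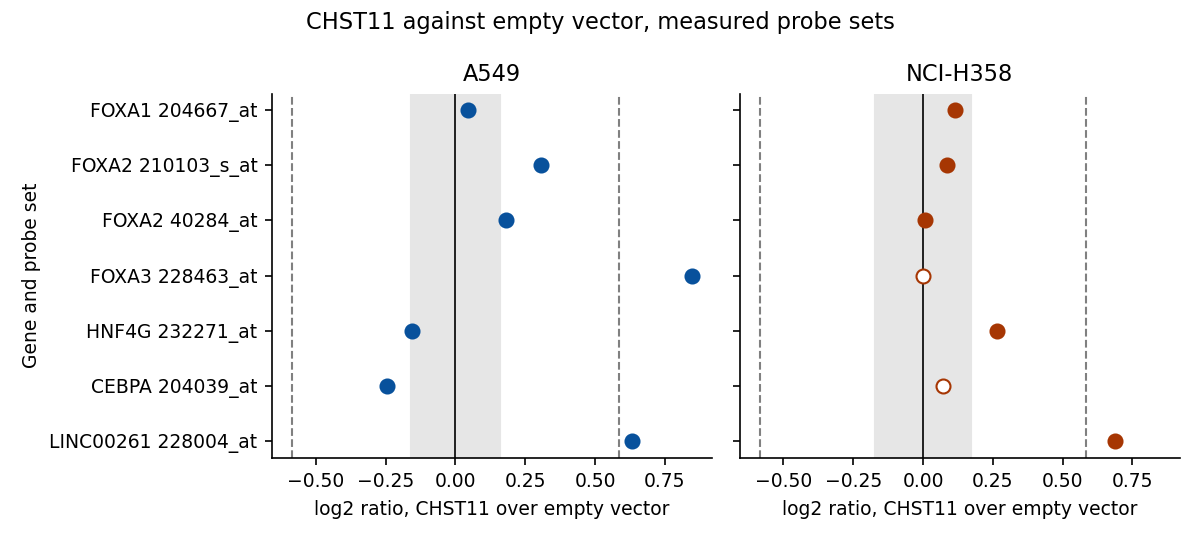
Log2 ratio of CHST11 over empty vector for the 7 member probe sets that passed the filter, in A549 (left) and NCI-H358 (right); the grey band spans the probe set SD of the line on each side of 0, dashed lines mark 1.5-fold, and open circles are genes not measured in that line. LINC00261 lies past 1.5-fold in both lines (0.63 and 0.69) and FOXA3 in A549 (0.85), while its NCI-H358 circle is open because it was not measured there.

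**Figure D3:**
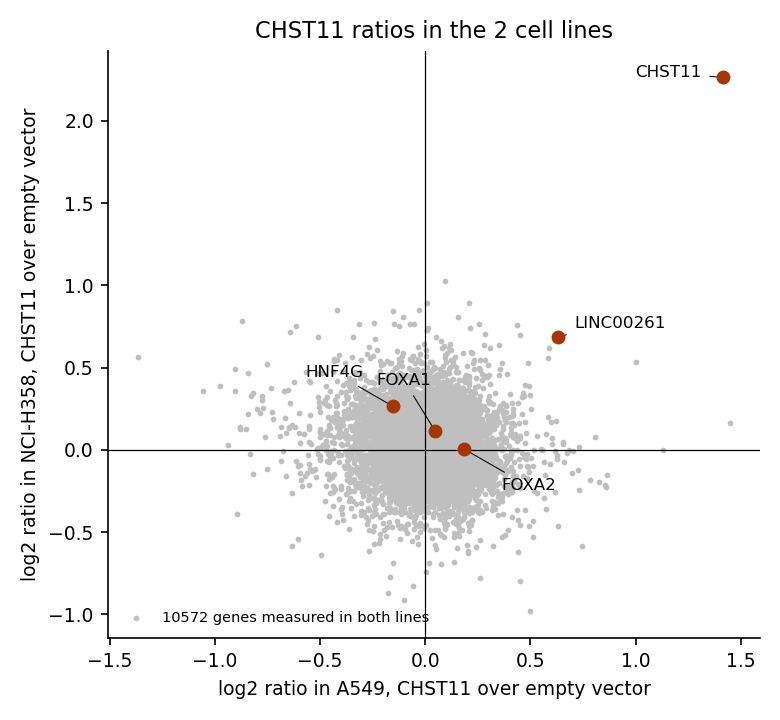
Log2 CHST11 ratio in NCI-H358 against that in A549 for the 10572 genes measured in both lines (grey), with the 4 members measured in both and CHST11 in red. LINC00261 (0.63 and 0.69) lies outside the main cloud in the upper right, while FOXA1, FOXA2 and HNF4G lie inside it.

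The genes whose 4-array pattern was most like that of LINC00261 were RASSF10, MICAL1, a flavin monooxygenase that acts on actin, and CRAT, the mitochondrial carnitine acetyltransferase. Likeness was the root mean square difference of log2 signals, each gene centred on its own mean, among 12271 genes. RASSF10 was the nearest, at 0.09, with signals of 45.7 and 59.7 in A549 and 16.4 and 25.9 in NCI-H358. MICAL1 stood at 0.13 and CRAT at 0.16. For FOXA3 the floor set the likeness, since both its NCI-H358 values were raised to it. The nearest genes were ANXA10 (0.06), SLC45A1 (0.08) and LINC00993 (0.09) with the floor. Without it they stood at 0.68, 0.65 and 0.14, so ANXA10 and SLC45A1 were no longer near.

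The nearest measured genes on either side of the members, in the RefSeq gene order, were set beside them. No gene is annotated between LINC00261 and FOXA2. On the far side of FOXA2, past 12 genes not measured, came THBD, thrombomodulin, with signals of 106.5 and 108 in A549 and 10.8 and 10.5 in NCI-H358, where both values were under the floor, at least 3.97-fold lower, and with a CHST11 ratio of 0.02 in A549. On the far side of LINC00261, past 22 genes not measured, XRN2, a nuclear exonuclease, had a difference that did not pass the test (log2 0.18, SE 0.09, adjusted p 0.138), with CHST11 ratios of 0.15 and 0.04. In A549 the LINC00261 ratio of 0.63 was larger than those of FOXA2, THBD and XRN2.

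MIPOL1, the nearest measured gene on one side of FOXA1, was higher in NCI-H358 as FOXA1 was, with signals of 51.1 and 51.8 against 90.8 and 110.6 (log2 0.96, SE 0.11, adjusted p 0.00174). SEC23A, a coat protein of transport vesicles on the other side past 15 genes not measured, was lower there (log2 -1.26, SE 0.12). Beside CEBPA, the divergent noncoding RNA CEBPA-DT had a log2 line difference of -0.25 (SE 0.09, adjusted p 0.0563), which did not pass the test, beside -2.07 for CEBPA. LRP3, a receptor of the LDL receptor family on the other side of CEBPA, was lower in NCI-H358 (92.3 and 112 against 28.5 and 28.2, log2 -1.84, SE 0.11). Around FOXA3, SYMPK, RSPH6A, IRF2BP1 and MYPOP had A549 CHST11 ratios from -0.20 to 0.01, while FOXA3 had 0.85. SYMPK, a scaffold of mRNA 3' end processing, had -0.19 in NCI-H358, which was 0.042 with the median of its probe sets.

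The lists that follow were chosen with earlier results known, and their counts stand beside 33.9% of all genes called higher and 30.6% lower in NCI-H358. Passing the filter through 1 line alone favours a difference between the lines, so counts are also given for genes measured in both. It does not force one: F5 and GATA4 passed through A549 alone, with log2 line differences of 0.01 and -0.09. Of 5 measured genes listed beside CEBPA, 3 were called higher (CEBPD, CEBPZ and DDIT3) and 1 lower (CEBPG) in NCI-H358. The median log2 difference was 0.36, the value of CEBPZ, which shares the name but is not a leucine zipper factor. CEBPD, a CEBP of acute phase responses, had signals of 674 and 839.5 in A549 and 1718 and 1700.0 in NCI-H358 (log2 1.18, SE 0.12, adjusted p 0.00122). CEBPB, which shares its binding site, did not pass the test (log2 -0.12, SE 0.09, adjusted p 0.310). None of the 5 reached 1.5-fold with CHST11 in either line.

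Among other forkhead factors, 17 of 26 with a probe set were measured, 6 called higher and 6 lower in NCI-H358, with a median of -0.23 that was 0.28 with the stricter filter. Of these, 3 passed the filter through A549 alone, and among the 14 measured in both lines 6 were called higher and 3 lower. FOXF2, a mesenchymal forkhead factor, had 281 and 312 in A549 and values under the floor in NCI-H358, at least 10.97-fold lower, and FOXQ1, an epithelial one, was 12.56-fold lower (adjusted p 4.1e-05). FOXD1 was 4.57-fold higher in NCI-H358 and FOXO3, a factor of stress and insulin signalling, 2.88-fold. None of the 17 measured in A549 or the 14 measured in NCI-H358 reached 1.5-fold with CHST11, and FOXO1 had the lowest A549 ratio of those named, -0.48.

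Foregut lineage factors were called in both directions: of 16 measured, 7 were called higher and 7 lower in NCI-H358, with a median of 0.04. Of these, 3 passed the filter through A549 alone and 2 through NCI-H358 alone, and among the 11 measured in both 5 were called higher and 5 lower. NKX2-1, the lung and thyroid lineage factor that FOXA factors work with, was at least 9.46-fold higher in NCI-H358 by its brightest probe set (log2 3.98, and 2.54 with the median of its probe sets), and GRHL2, a keeper of epithelial identity, at least 8.61-fold. HHEX, a liver and thyroid homeobox factor, was 6.48-fold lower (489 and 600.4 against 77.9 and 89.98), and TBX3 at least 6.58-fold lower. With CHST11, GATA4, an endoderm and heart factor, was 1.5-fold or more higher in A549 (16.8 and 27.4, log2 0.71, above the filter on the CHST11 array only), and SOX17, an endoderm factor, was lower (51.5 and 30.5, log2 -0.76). Of the 13 measured in NCI-H358 none reached that size, and SOX2 had 0.35 in A549 and 0.49 in NCI-H358.

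Nuclear receptors and coactivators included 13 measured genes, 3 called higher and 7 lower in NCI-H358, with a median of -0.39. Of these, 2 passed the filter through A549 alone, and among the 11 measured in both 3 were called higher and 5 lower. NR5A2, a liver and gut receptor, had 268 and 317 in A549 and values under the floor in NCI-H358, at least 10.81-fold lower by its brightest probe set (log2 -4.18, and -2.80 with the median of its probe sets). PPARGC1A, a coactivator of HNF4 receptors, was at least 2.76-fold lower (81.6 and 68.2 against 8.10 and 11.7). NR2F1, which binds sites shared with HNF4, was 1.65-fold higher in NCI-H358. None reached 1.5-fold with CHST11, and NR0B2, a corepressor without a DNA-binding domain, had -0.24 and -0.32. HNF1 and ONECUT factors had 0 measured genes of the 3 with a probe set.

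Liver-type secreted and metabolic genes known as targets of these factors were mostly under the filter in NCI-H358: of 32 with a probe set, 15 were measured in A549 and 5 in NCI-H358. Of the 15, 11 were called lower and 2 higher in NCI-H358, with a median of -0.55, but 10 had passed the filter through A549 alone. Of the 5 measured in both lines, 2 were called lower and 2 higher, TTR among these at an adjusted p of 0.0455, a call lost with quantile normalization, with no floor and in other settings. FGB, the fibrinogen beta chain, had 539 and 393 in A549 and was at least 17.05-fold lower in NCI-H358, and TM4SF4, a membrane protein of liver and gut, at least 15.22-fold. APOE was 2.27-fold higher in NCI-H358. TTR, transthyretin, a classical FOXA and HNF target, was lower with CHST11 in both lines (36.4 and 27.5, then 43.4 and 33.8, log2 -0.40 and -0.36), at signals near the filter. By size, 0 of the 15 were at least 1.5-fold higher and 1 was lower with CHST11 in A549, the coagulation factor F5 (28.8 and 14.6, log2 -0.83 with the second raised to the floor).

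Of 28 gut-type genes with a probe set, 10 were measured, 2 called higher and 4 lower in NCI-H358, with a median of -0.31. Of these, 4 passed the filter through A549 alone and 2 through NCI-H358 alone, and among the 4 measured in both 0 were called higher and 1 lower. CDH17, the liver-intestine cadherin, had 168.5 and 108 in A549, and ANXA13, an intestinal annexin, had 172 and 116 in A549. Both lay under the floor in NCI-H358 and were lower with CHST11 in A549 (log2 -0.64 and -0.57), as was the trefoil factor TFF1 (36.4 and 20.3, log2 -0.84), while MUC13 had 0.55. TSPAN8 and VSIG1 were measured in NCI-H358 only, at least 2.995-fold and 2.15-fold higher than in A549. Of 18 lung-type genes with a probe set, 9 were measured, 2 called higher and 1 lower in NCI-H358. Both higher ones passed the filter through NCI-H358 alone, and among the 7 measured in both 0 were called higher and 1 lower. LAMP3, a lysosomal protein of alveolar type II cells, was at least 4.87-fold higher in NCI-H358, and ABCA3, the lipid transporter of lamellar bodies, at least 3.5-fold lower. ABCA3 was the only lung-type gene at least 1.5-fold higher with CHST11 in NCI-H358 (18.6 and 37.8, log2 1.03), and MUC5B the only one that much lower in A549 (86.9 and 55.4, log2 -0.65). With the median of its probe sets the MUC5B ratio was -0.35, under 1.5-fold.

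**Figure D4:**
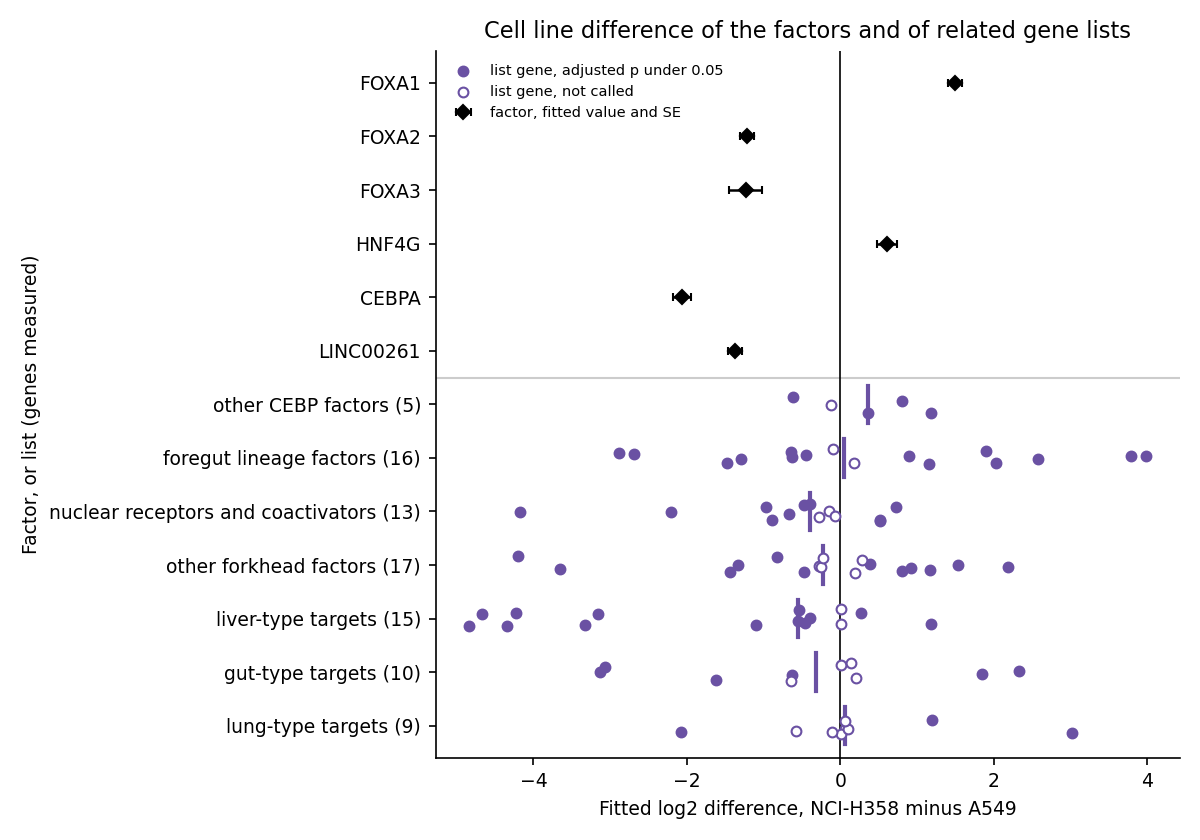
Fitted log2 difference, NCI-H358 minus A549, for the 6 members (diamonds with SE) and for the measured genes of 7 lists (circles, spread vertically for legibility; filled where the limma adjusted p was under 0.05; bars are list medians; numbers of genes in brackets). FOXA1 (1.496) and HNF4G (0.61) lie to the right, and FOXA2, FOXA3, LINC00261 and CEBPA (-2.07) to the left; the liver-type list reaches farthest left.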

How the data were processed

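RNA of 4 cultures was measured on Affymetrix 1-colour arrays from biotin-labelled cRNA. The deposited values are linear intensity signals made with MAS5, per the submitters' processing notes; the labels give no version, scaling target or later step, and a later step could compress differences of dim genes. Signals were floored at 16.14, log2 was taken, and among the probe sets annotated to 1 gene the brightest by mean log2 stood for that gene. The annotation gave 1 symbol for 41091 probe sets and several for 1801, and 99.87% of the former matched a RefSeq record by Entrez ID. Control probe sets (62) were left out.

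Genes measured in at least 1 line (12271) entered a linear model in limma 3.58.1 (R 4.3.3; terms for cell line and vector, eBayes, Benjamini-Hochberg adjusted p of 0.05), which left 1 residual degree of freedom. A check of the fit on simulated data covered the cell line term only. It held far fewer changed genes than were called here, so it does not give the error of these calls. CHST11 ratios within a line had no test and were counted by size, 1.5-fold and 2-fold. Where the dimmer line lay under the filter, arrays below that value were set to it, which makes the fold a lower bound. Groups came from the sample labels. The members and lists were chosen with earlier results of these data known. Named by rule were all members, CHST11, the 2 highest and 2 lowest genes of each list by line difference and by mean CHST11 ratio, the marker genes, up to 2 measured neighbours per side and the 3 most similar genes per member. Promoters came from a RefSeq table of GRCh38.p14. Alternatives were 3 other normalizations, the floor, the filter, the probe set rule, a variance trend, each vector alone for the line difference and, added after seeing the data, pattern likeness with no floor. Python 3.11.15, NumPy 2.4.6, pandas 2.3.3 and matplotlib 3.10.9 were used.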

Additional observations from a re-analysis of the deposited data

Results flagged for a closer look

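In 2 genes of the marker and neighbour lists, EPCAM and CRISPLD1, the CHST11 ratio had opposite signs in the lines and was larger than the probe set SD in each. EPCAM, an epithelial adhesion molecule used as a marker here, had log2 -0.77 in A549 and 0.26 in NCI-H358, a gap of 1.03. CRISPLD1, a neighbour of HNF4G, had log2 -0.36 and 0.44, a gap of 0.80. Neither difference was tested, since each ratio came from 1 pair of arrays. Opposite signs of any size were found in 52.3% of the 10572 genes measured in both lines. That share does not ask for ratios past the probe set SD, so it is not the background of this flag.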

How the results depend on the processing

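The member ratios and line differences kept their direction wherever a member had a value, apart from FOXA2 in NCI-H358, whose ratio ran from -0.02 to 0.09. LINC00261 ran from 0.61 to 0.65 in A549 and from 0.69 to 0.72 in NCI-H358, and FOXA3 in A549 from 0.85 to 0.87. Each has 1 probe set, with the signals of these ratios above the floor, so only the 3 other normalizations could change them. The stricter filter left both genes out. The FOXA3 line difference ran from -2.60 with no floor to -0.81 on the empty vector arrays. With the filter at the 75th percentile, 2 members remained to be tested, FOXA1 and FOXA2, and both (2) were called, as were 71.5% of all genes tested. With no filter 2 of 6 were called. All genes called between the lines then numbered 1905 (9.63%) against 7909 (64.5%), and the cause was not tested. Genes at least 1.5-fold apart between vectors numbered 138 in A549 and 133 in NCI-H358, and 57 and 44 with the stricter filter, where fewer genes were counted, and 75 and 84 with the median of probe sets. With that median 16 of 216 values of single genes changed sign, and 4 of them had passed the test or the probe set SD: the line difference of ATP11B (-0.12), the A549 ratios of FITM2 (-0.17) and UHMK1 (0.032), and the NCI-H358 ratio of SYMPK (0.042). The medians of the lists moved with the filter, the liver-type one from -3.78 to 0.00 and the gut-type one from -2.34 to 0.00. No pairing by replicate number was possible because the labels give none and each group held 1 array. The vectors were paired by line only, through the cell line term of the fit.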

Other observations

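The 3 genes nearest in pattern to the other members over the 4 arrays were as follows, by the root mean square log2 difference. IMPA2, an inositol monophosphatase, lay 0.015 from FOXA1, followed by ZNF443 and CLDND1. MALT1, a paracaspase of NF-kB signalling, lay 0.016 from FOXA2, followed by TMEM260 and LRRC20. PLCXD2 lay 0.036 from CEBPA, followed by DUSP16, a MAPK phosphatase, and DDIT4L. UHMK1, CBLB and ATP11B lay 0.024 to 0.028 from HNF4G, and the values of UHMK1 and ATP11B changed sign with the median of probe sets. With 4 arrays and 12271 genes, near matches of this size are a description only.

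The measured genes around HNF4A, which itself was not analysed here, differed from each other. FITM2, a lipid droplet protein, had signals of 230 and 282 in A549 and 105 and 105.5 in NCI-H358 (log2 -1.27, SE 0.11), a difference of -0.43 with the median of its probe sets, while TTPAL on the other side was higher in NCI-H358 (log2 0.58, SE 0.09). The noncoding RNA OSER1-DT had 27.5 and 41.8 in A549, a CHST11 ratio of log2 0.60 that was 0.13 with quantile normalization, and 33.0 and 33.9 in NCI-H358, a ratio of 0.04.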
